A study of Mus musculus with 24 samples.

Results

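The genes described here are the cytokines Il6, Il11 and Lif, the receptor chains Il6st, Il6ra, Osmr, Lifr and Cntfr, the transcription factor Stat3 and its feedback inhibitor Socs3. They were taken by symbol from the table of gene counts, and all 10 were found among its 18647 genes and passed the filter on low counts, which left 18153 genes for testing. Their mRNA was measured by RNA sequencing of the hippocampal CA1 region of adult C57Bl/6N mice after pilocarpine-induced status epilepticus (SE).

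Il6st encodes gp130, the signalling chain shared by the receptors of the interleukin 6 family. Each ligand brings gp130 together with a further chain, such as Il6ra for Il6, Lifr for Lif or Osmr for oncostatin M. The complex activates JAK kinases that phosphorylate STAT3. Phosphorylated STAT3 enters the nucleus and induces, among others, Socs3, whose protein binds gp130 and JAK and limits further signalling. In brain the pathway is known for driving astrocytes into a reactive state and for microglial and neuroprotective responses after injury.

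The study followed the CA1 transcriptome through the first days after SE. Mice of at least 60 days and 20 g received 1 mg/kg scopolamine and, 20 min later, 335 mg/kg pilocarpine, and those that developed SE were killed 6, 12, 24, 36 or 72 h after it. Non-SE controls (Ctr) were killed at 12, 36 or 72 h and received saline in place of pilocarpine. Scopolamine and diazepam (4 mg/kg, given to SE mice 40 min after SE began) were common to both arms. There were 3 libraries in each of the 8 groups and 24 in all, and the SE groups hold only animals that responded to pilocarpine. CA1 was dissected by eye from 400 µm slices, so each library is a mixture of neurons, glia and vessel cells, and fewer cells of a type cannot be told apart from less RNA per cell. The labels do not say that replicates came from separate animals. P-values measure the spread between these libraries that is left after 1 factor for residual variation (RUVr), taken from the same libraries. Its weights were largest in size in Ctr 72 h (-0.383, 0.797 and -0.374 in replicates 1 to 3). Spread within that group is therefore partly taken out before testing.

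Library totals ran from 2663936 counts (Ctr 72 h replicate 3) to 30133731 counts (SE 12 h replicate 2), with a median of 13521590. The CA1 pyramidal cell markers Wfs1, Fibcd1, Pou3f1 and Mpped1 had counts in every library, at levels that differed between groups and replicates (given below with the other cell type markers). A set of 6 libraries stood apart through markers of sensory ganglion neurons, cells that CA1 does not contain. The 8 markers (Scn10a, Scn11a, Avil, Isl1, Tlx3, Prph, P2rx3 and Trpv1) summed to 240 CPM (counts scaled to the library total after TMM normalisation) in SE 6 h replicate 3, 487 CPM in SE 12 h replicate 1 and 579 CPM in SE 36 h replicate 3. They summed to 661 CPM and 342 CPM in SE 72 h replicates 1 and 2, and to 1260 CPM in Ctr 72 h replicate 2, where Scn10a (355 CPM) was the most abundant. In the other 18 libraries the sum lay between 3.63 and 59.2 CPM, and Isl1 and Tlx3 were at 0 in all 3 Ctr 12 h libraries. Of the 8 markers 3 were called higher at 12 h after SE and none at the other 4 times. Calls on the 10 genes, and on named genes of the pathway, that ended without these libraries are given with and without them.

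Against controls, a gene was called when its p by edgeR's quasi-likelihood test, adjusted over all genes tested by the Benjamini-Hochberg method, was no higher than 0.05 and the log2 fold change (log2FC) was 0.66 or more in either direction. At 12 h 8 of the 10 genes were called higher than in time-matched controls and none lower, where 13.9% of all genes tested were called higher and 11.4% lower. At 36 h 6 were higher and Cntfr was lower, against 12.7% and 8.91% of all genes. At 72 h 6 were again higher and Cntfr lower, against 15.2% and 4.21%. The SE groups at 6 and 24 h have no control of their own time and were set against the mean of the 3 control groups, so these comparisons share controls with the others. At 6 h 8 genes were called higher (15.8% of all genes) and at 24 h 7 (14.9%), with none lower at either time (6.21% and 9.21%). Lif, Il6st, Osmr, Socs3 and Stat3 were called higher at all 5 times. The median log2FC of the 10 genes at the 3 time-matched comparisons was 2.79, 1.86 and 2.27, beside 0.0071, 0.0033 and 0.097 for all genes. With Il6 at the bound its empty controls allow, or left out where both groups were at the floor, these medians were 2.08, 2.50 and 1.73. Without the 6 libraries that carry ganglion markers, 8 genes were called at 12 h, 7 at 36 h and 6 at 72 h, where the call on Cntfr was lost.

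**Figure D1:**
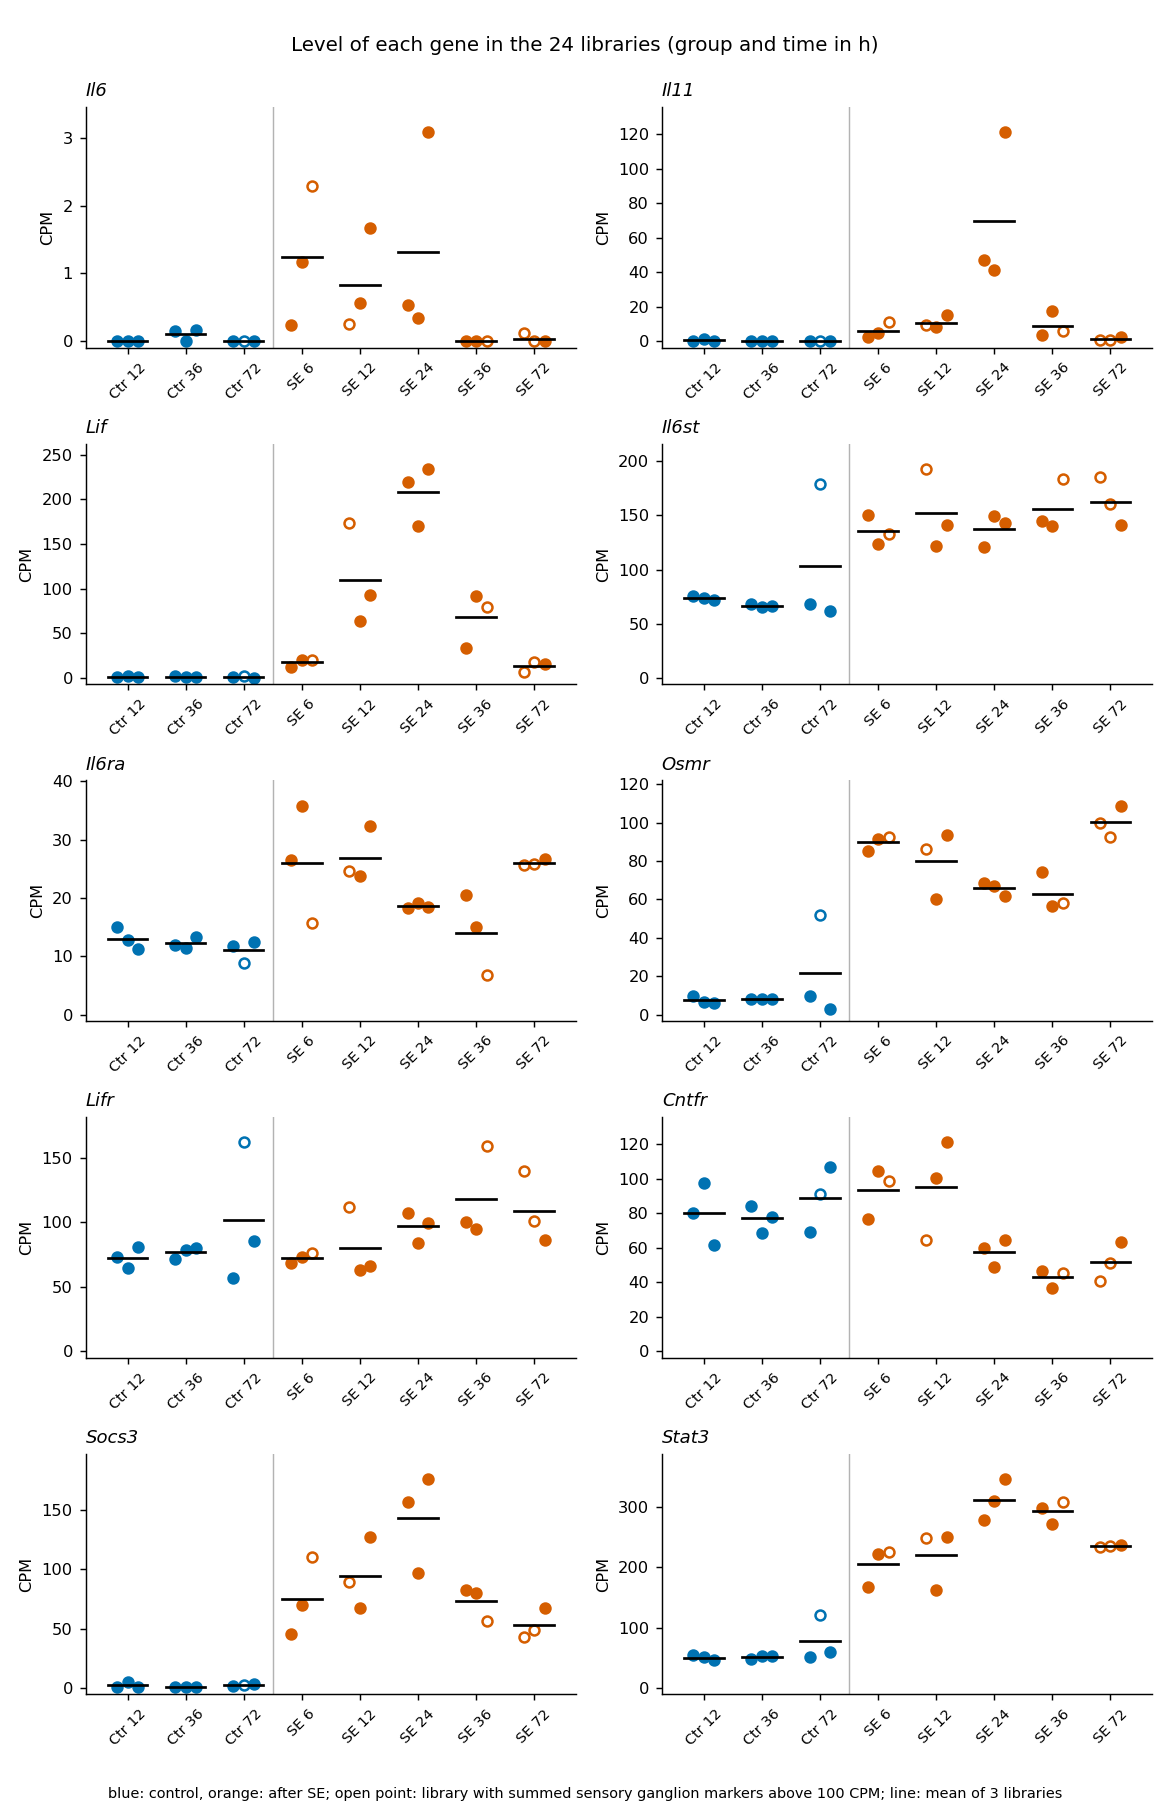
Level of each of the 10 genes in CPM in every library by group, with controls in blue, SE in orange, the mean of 3 libraries as a line and the 6 libraries with ganglion markers as open points. The SE points of Lif, Osmr, Socs3 and Stat3 lie above every control at all times, while Lifr and Cntfr overlap the controls at 6 and 12 h.

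Of the ligands, Il6, a cytokine of the acute inflammatory response, was near the limit of detection. SE 6 h libraries held 3, 12 and 54 reads, SE 12 h libraries 5, 17 and 21, and SE 24 h libraries 5, 8 and 44. At 36 h no SE library held a read, and at 72 h the SE libraries held 2, 0 and 0. The 9 control libraries held 4 reads in all, of which 2 each were in Ctr 36 h replicates 1 and 3. Il6 reads were therefore present in every SE library up to 24 h and in 1 of 6 later SE libraries. At 12 h the mean of 0.828 CPM was at least 4.09-fold higher than the mean floor of 3 counts per control library (0.202 CPM), with an adjusted p of 0.0166 by edgeR's quasi-likelihood test. The adjusted p was 0.00132 at 6 h and 0.00118 at 24 h in the same fit. The 12 h call was lost without Ctr 12 h replicate 3 and with a factor for the 3 ranges into which the library numbers in the labels fall, whose meaning is not stated (adjusted p = 0.0675), over a range of 0.00133 to 0.0675 for all alternatives. With that factor the 24 h call was lost too (adjusted p = 0.0719, the highest of all alternatives, the lowest being 6.93e-05).

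Il11, a cytokine that signals through Il11ra1 and gp130, stood at 2.40, 4.60 and 11.2 CPM at 6 h and at 9.19, 7.99 and 15.3 CPM at 12 h. It then reached 46.9, 41.1 and 121 CPM at 24 h, fell to 3.56, 17.8 and 5.81 CPM at 36 h, and was at 0.710, 0.572 and 2.19 CPM at 72 h. Controls held 0 to 1.11 CPM (median 0.338, n = 9), and every SE library lay above every control of its own time. The log2FC was 4.12 (standard error 0.70) at 12 h and 5.24 (0.83) at 36 h, with adjusted p of 0.000144 and 6.74e-05 by edgeR's quasi-likelihood test. Against all controls it was 4.56 (0.60) at 6 h and 8.02 (0.54) at 24 h, the highest log2FC of Il11 at any time. At 72 h the log2FC of 3.01 (1.34) did not pass (adjusted p = 0.101), and the Ctr 72 h libraries held 4, 0 and 1 reads.

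Lif, leukemia inhibitory factor, was measured at 12.4, 20.1 and 20.3 CPM at 6 h and at 173, 64.0 and 93.0 CPM at 12 h. It reached 219, 170 and 234 CPM at 24 h, and then 33.9, 91.9 and 79.2 CPM at 36 h and 6.51, 17.8 and 15.3 CPM at 72 h. The 9 controls lay between 0 and 1.73 CPM (median 1.43), below every SE library. The log2FC was 6.30 (standard error 0.49), 5.53 (0.48) and 4.11 (0.63) at 12, 36 and 72 h, with adjusted p of 2.55e-08, 5.47e-08 and 6.33e-05 by edgeR's quasi-likelihood test. Against all controls it was 3.93 (0.36) at 6 h and 7.48 (0.33) at 24 h. The 12 h value was 5.81 without the 6 libraries with ganglion markers, which include the highest Lif library of that group.

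Because Il6, Il11 and Lif were all called higher at 6, 12 and 24 h, the 250 bases before the start of their canonical transcripts (GENCODE annotation, GRCm39 genome) are shown, 5′ to 3′ on the strand of the gene. None of these bases is exonic in the same gene. Il6 (ENSMUSG00000025746.12) lies at chr5:30218112-30224979 on the plus strand and its window at chr5:30217862-30218111. Il11 (ENSMUSG00000004371.16) lies at chr7:4775372-4785858 on the minus strand and its window at chr7:4781141-4781390. The Il11 window thus lies within the annotated gene, which begins further upstream than the canonical transcript. Lif (ENSMUSG00000034394.15) lies at chr11:4207557-4222514 on the plus strand and its window at chr11:4207307-4207556. Capitals mark TGANTCA, a pattern that reads the same on both strands. It includes TGAGTCA and TGACTCA, the letters that the AP-1 family of transcription factors is known to recognise.
Il6: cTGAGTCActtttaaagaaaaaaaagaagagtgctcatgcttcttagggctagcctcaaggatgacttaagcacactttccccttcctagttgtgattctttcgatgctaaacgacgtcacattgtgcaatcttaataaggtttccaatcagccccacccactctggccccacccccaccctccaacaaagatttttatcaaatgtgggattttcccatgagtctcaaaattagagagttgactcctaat
Il11: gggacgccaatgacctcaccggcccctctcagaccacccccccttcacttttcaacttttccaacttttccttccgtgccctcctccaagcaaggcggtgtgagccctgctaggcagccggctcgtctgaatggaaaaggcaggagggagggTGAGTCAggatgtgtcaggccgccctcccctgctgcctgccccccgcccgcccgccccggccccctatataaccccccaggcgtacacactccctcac
Lif: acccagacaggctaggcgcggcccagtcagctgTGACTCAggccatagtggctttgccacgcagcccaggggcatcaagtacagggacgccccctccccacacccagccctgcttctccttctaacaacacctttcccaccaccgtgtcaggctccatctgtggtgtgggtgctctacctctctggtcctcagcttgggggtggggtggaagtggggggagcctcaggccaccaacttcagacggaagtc

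The match lay 249 to 243 bases before the start of Il6, 98 to 92 before Il11 and 217 to 211 before Lif. It was found in the windows of these 3 of the 10 genes and in 5.22% of 18552 windows of the same length. That share is for TGANTCA with any middle letter, while the 3 matches were TGAGTCA or TGACTCA. The STAT letters TTCNNNGAA were found in 1 of the 10 windows, that of Socs3, and in 6.63% of all windows, searched on both strands. The Socs3 match lay 223 to 215 bases before the start of its canonical transcript (ENSMUSG00000053113.4, chr11:117856905-117860898, minus strand), with the flanks shown. Other Socs3 transcripts start further upstream, so that its window at chr11:117860124-117860373 lies within the gene, and 173 of the 250 bases are exonic in Socs3.
Socs3: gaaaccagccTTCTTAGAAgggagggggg

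The narrower form TTCCNGGAA, which is part of the former, was in none of the 10 windows and in 0.97% of all. The cyclic AMP response letters TGACGTCA were found for Stat3 alone (ENSMUSG00000004040.17, chr11:100775924-100830450, minus strand), 224 to 217 bases before its start, and in 1.83% of all windows.
Stat3: taaagtgtctTGACGTCAcgcactgcca

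Of the other ligands of the family, Clcf1, a ligand of the Cntfr complex, and Osm, oncostatin M, were called higher at all 5 times. Clcf1 stood at 9.19, 9.80 and 6.41 CPM at 6 h, at 77.5, 50.6 and 81.7 CPM at 24 h and at 20.4, 18.98 and 80.5 CPM at 72 h, against 0.760 to 2.62 CPM in controls. Its log2FC was 4.38 (standard error 0.52), 4.79 (0.53) and 4.99 (0.61) at 12, 36 and 72 h, with the lowest SE library above the highest control (adjusted p of 2.93e-06, 9.61e-07 and 3.72e-06 by edgeR's quasi-likelihood test). Osm remained low, at 0.627 to 4.35 CPM in SE libraries against at most 0.750 CPM in controls, which held 2 reads in all at 36 h and 5 at 72 h. Relative to a mean floor of 3 counts per control library, its SE mean was at least 7.90-fold higher at 36 h and at least 2.05-fold higher at 72 h (adjusted p of 0.000367 and 0.0229). Ctf1, cardiotrophin 1, passed at 72 h alone among the 5 times, with a log2FC of 2.23 (adjusted p = 0.0336). Its SE 72 h libraries held 1.95, 3.43 and 2.92 CPM and the controls 1.43, 0 and 2.25 CPM, so the groups overlapped. Ebi3, a subunit of interleukin 27, passed at 72 h (adjusted p = 0.0110), where the 3 controls held 3 reads in all and the SE mean was at least 1.61-fold higher than their floor, and at 24 h (1.99, adjusted p = 0.0239). The 72 h calls on Osm, Ctf1 and Ebi3 and the 24 h call on Ebi3 were lost without Ctr 72 h replicate 2 alone (adjusted p of 0.203, 0.429, 0.135 and 0.133), and also without the 6 libraries with ganglion markers (0.371, 0.540, 0.0956 and 0.0874). Cntf was too low to be tested.

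Levels of different ligands were compared as CPM per kilobase of exon. At 24 h Lif had 45.1 (SD 7.32), Il11 33.5 (SD 21.5), Clcf1 18.4, Osm 1.33 and Il6 0.544 CPM per kb. Of the summed level of 7 ligands (Il6, Il11, Lif, Osm, Cntf, Ctf1 and Clcf1), Lif made up 35.7%, 63.7%, 45.4%, 50.1% and 18.3% from the earliest to the latest SE group. The share of Clcf1 was 20.8% at 6 h and 66.8% at 72 h, where Il11 had 3.54%. By group means Lif thus held the largest share up to 36 h and Clcf1 at 72 h. In single libraries Lif was the highest ligand per kilobase in 9 of the 12 SE libraries up to 36 h. Il11 exceeded it in SE 6 h replicate 3 (5.37 against 4.40 CPM per kb) and SE 24 h replicate 3 (58.3 against 50.9), and in SE 36 h replicate 1 Clcf1 and Lif were level at 7.36 and 7.35. Clcf1 was the highest in 3 of 3 libraries at 72 h. At 72 h replicate 3 had 80.5 CPM of Clcf1 and lay far above the other libraries of its group.

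**Figure D2:**
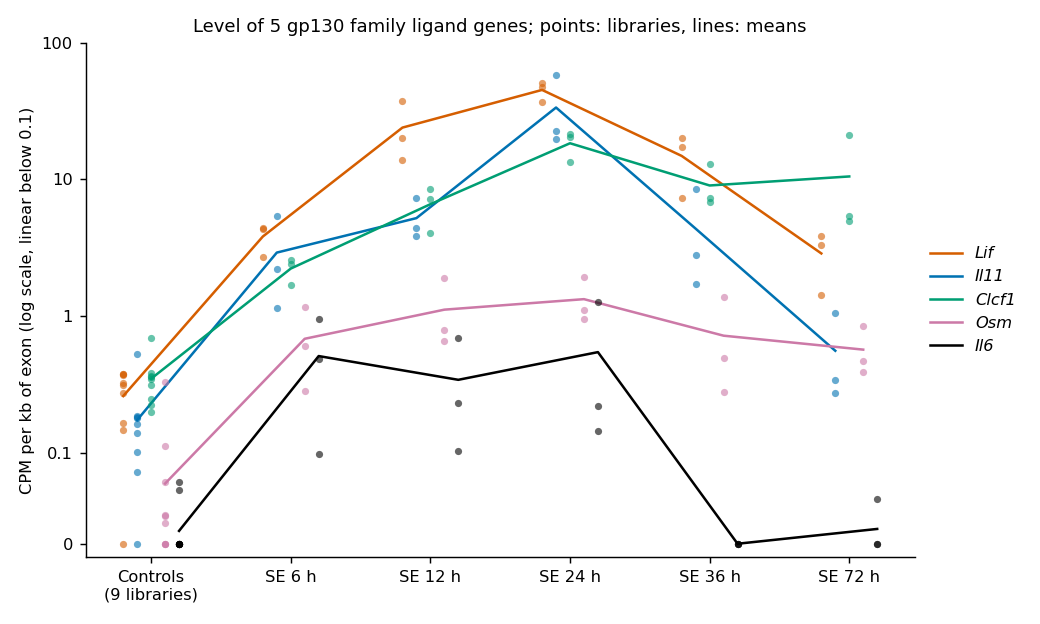
Level of Lif, Il11, Clcf1, Osm and Il6 in CPM per kilobase of exon in each library by group, on an axis that is linear near 0 and logarithmic above. Lif and Il11 peak at 24 h and fall by 72 h, Clcf1 stays above its controls at 72 h, and Il6 is near 0 at 36 and 72 h.

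Il6st, the gp130 chain itself (ENSMUSG00000021756.13, chr13:112600604-112646620, plus strand), was expressed in every library. The SE libraries held 151, 124 and 133 CPM at 6 h, 193, 122 and 141 at 12 h, 121, 149 and 143 at 24 h, 145, 140 and 184 at 36 h, and 186, 161 and 141 at 72 h. Controls held 75.6, 73.5 and 72.2 CPM at 12 h, 68.2, 65.4 and 66.5 at 36 h, and 68.0, 179 and 61.9 at 72 h. The groups were apart at 12 and 36 h and overlapped at 72 h, where Ctr 72 h replicate 2 exceeded 2 of the 3 SE libraries. The log2FC was 1.03 (standard error 0.11), 1.22 (0.11) and 0.84 (0.11) at 12, 36 and 72 h, with adjusted p of 6.60e-07, 5.40e-08 and 6.60e-06 by edgeR's quasi-likelihood test. Without Ctr 72 h replicate 2 the 72 h value was 1.31 (adjusted p = 1.78e-05). The 72 h call was lost without Ctr 72 h replicate 1 or replicate 3, and also without the RUVr factor. Against all controls Il6st was 0.83 higher at 6 h and 0.85 higher at 24 h on the log2 scale, and the order of the 5 SE groups was within the spread of their libraries.

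Osmr, the oncostatin M receptor chain (ENSMUSG00000022146.13, chr15:6843053-6904450, minus strand), showed the largest log2FC of the 5 receptor chains at each time. Its SE libraries held 85.1, 91.5 and 92.4 CPM at 6 h, 86.2, 60.0 and 93.5 at 12 h, 68.4, 66.9 and 61.9 at 24 h, 74.0, 56.6 and 58.3 at 36 h, and 99.5, 92.5 and 109 at 72 h. Controls held 9.65, 6.36 and 6.19 CPM at 12 h, 8.13, 7.88 and 8.05 at 36 h, and 9.54, 52.0 and 3.00 at 72 h. All SE libraries thus lay above all controls, and 8 of the 9 controls were below 10 CPM. The log2FC was 3.46 (standard error 0.27), 2.99 (0.27) and 2.84 (0.27) at 12, 36 and 72 h, with adjusted p of 2.54e-08, 6.28e-08 and 2.12e-07 by edgeR's quasi-likelihood test. At 72 h it was 3.75 without Ctr 72 h replicate 2 and 3.84 without the 6 libraries with ganglion markers, and 2.10 with the ranges of the label numbers as a factor, where it did not pass (adjusted p = 0.0620). Already at 6 h Osmr was 3.26 higher than in all controls on the log2 scale, and at 24 h 2.80 higher. Per kilobase Osmr stood at 8.09 (SD 0.66) against 10.5 (SD 1.45) CPM per kb for Il6st in SE 72 h. In Ctr 72 h the values were 0.769, 4.195 and 0.242 for Osmr against 4.38, 11.5 and 3.98 CPM per kb for Il6st in replicates 1, 2 and 3, and the means in Ctr 12 h were 0.597 and 4.75.

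Il6ra, the membrane receptor of interleukin 6 (ENSMUSG00000027947.12, chr3:89771366-89820719, minus strand), was the least abundant receptor chain of the 5 in SE 24 h per kilobase. Libraries held 26.5, 35.9 and 15.6 CPM at 6 h, 24.7, 23.8 and 32.3 at 12 h, 18.3, 19.2 and 18.4 at 24 h, 20.5, 15.1 and 6.72 at 36 h, and 25.6, 25.8 and 26.7 at 72 h, against 8.87 to 15.05 CPM in the 9 controls. SE libraries exceeded controls except at 36 h, where the groups overlapped. The log2FC was 1.05 (standard error 0.27, adjusted p = 0.00503 by edgeR's quasi-likelihood test) at 12 h, 0.18 (adjusted p = 0.672) at 36 h and 1.25 (0.29, adjusted p = 0.00326) at 72 h. With a factor for the ranges of library numbers the 72 h value was 0.95 and did not pass (adjusted p = 0.106). It was also called at 6 h (adjusted p = 0.000461), and the 0.64 at 24 h missed the threshold on fold change.

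Lifr (ENSMUSG00000054263.13, chr15:7120095-7226970, plus strand) and Cntfr (ENSMUSG00000028444.18, chr4:41657498-41697089, minus strand) encode the receptor chains for leukemia inhibitory factor and ciliary neurotrophic factor. Lifr was not called at any time. Its SE libraries held 112, 62.9 and 66.4 CPM at 12 h, 101, 95.1 and 159 at 36 h and 140, 101 and 86.0 at 72 h. Controls held 73.1, 64.4 and 80.7, then 71.6, 78.8 and 80.1, then 57.1, 162 and 85.9 CPM. Only at 36 h were the groups apart, with a log2FC of 0.60 (standard error 0.18, adjusted p = 0.0121 by edgeR's quasi-likelihood test), under the threshold on fold change. That value was 0.35 (adjusted p = 0.0796) without the 6 libraries with ganglion markers, and it passed without SE 36 h replicate 1 or replicate 2.

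Cntfr was the gene of the 10 that fell. SE libraries held 64.6, 100 and 121 CPM at 12 h, 59.9, 48.9 and 64.5 at 24 h, 46.4, 36.4 and 45.6 at 36 h, and 40.8, 51.1 and 63.5 at 72 h. Controls held 80.4, 97.6 and 61.6, then 84.0, 68.8 and 78.0, then 68.9, 91.2 and 107 CPM. The groups overlapped at 12 h, and at 36 and 72 h every SE library was below every control of its time. The log2FC was 0.25 (adjusted p = 0.386) at 12 h, -0.84 (standard error 0.22, adjusted p = 0.00655) at 36 h and -0.77 (0.23, adjusted p = 0.0148) at 72 h by edgeR's quasi-likelihood test. The 72 h call was lost without SE 72 h replicate 1, without Ctr 72 h replicate 3 and without the 6 libraries with ganglion markers (-0.44, adjusted p = 0.330). Of 7 markers of neurons, which express Cntfr, 3 were called lower at 36 h and 3 at 72 h and none higher, and their sum was 6561 and 6417 CPM against 12704 and 9777 CPM in controls. Camk2a, the most abundant of them in Ctr 36 h, held 1725 against 5952 CPM at 36 h, while Gad1 and Gad2 had log2FC of 0.13 and 0.15 there and were not called. At 12 h, when Cntfr was not called, Syt1 and Camk2a were called lower (-1.01 and -1.07) and the sum was 7172 against 12125 CPM. Without the 6 libraries with ganglion markers 0 of the 7 were called at 72 h, with log2FC of -0.67 for Snap25, -0.65 for Syt1 and -0.52 for Camk2a. Their part in the Cntfr result was not tested.

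The family has 3 further receptor chains in the list, of which 0, 1 and 0 were called at 12, 36 and 72 h. The 1 call was higher, and 13.9%, 12.7% and 15.2% of all genes were called higher at these times. Il11ra1, the receptor of interleukin 11, had log2FC of 0.26, 0.07 and 0.17 at 12, 36 and 72 h and was not called. Il27ra was called at 36 h alone with all libraries (2.14, adjusted p = 0.00899). Without the 6 libraries with ganglion markers it was called lower at 6 h (-2.03, beside -1.29 with all libraries). Il31ra was not called, and its highest level (5.97 CPM) was in Ctr 72 h replicate 2, the library with the most ganglion marker reads. Adam17 and Adam10 encode proteases that release receptor ectodomains such as that of Il6ra from the membrane. Adam17 was called at 36 h (log2FC 0.72), 72 h (1.30) and 24 h (0.68), and Adam10 at none of the 5 times. The 24 h value of Adam17 was 0.65 both without the 6 libraries with ganglion markers and without Ctr 72 h replicate 2 alone, under the threshold on fold change.

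**Figure D3:**
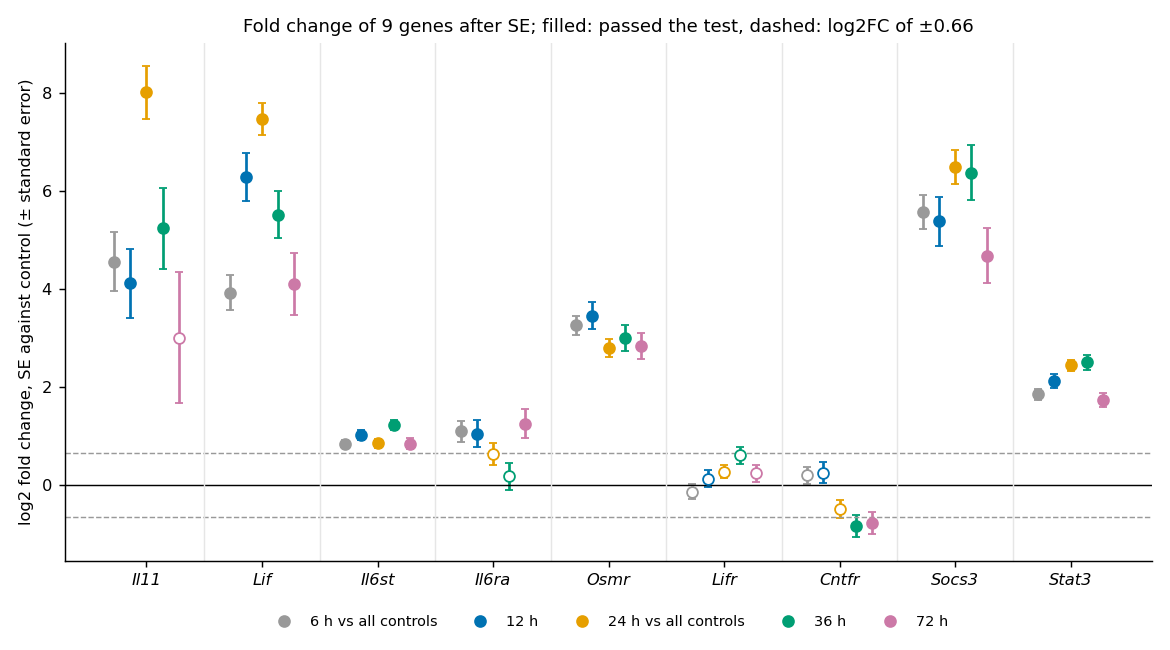
Log2FC ± standard error against controls for the 9 genes other than Il6 at 5 times, with filled points for those that passed the test and dashed lines at ±0.66. The ligands Lif and Il11 and the inhibitor Socs3 lie highest, Il6st, Osmr and Stat3 stay between 0.8 and 3.5, Lifr stays within the dashed lines, and Cntfr is below them at 36 and 72 h.

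Stat3, the transcription factor downstream of gp130, was measured at 168, 223 and 226 CPM at 6 h, 249, 163 and 250 at 12 h, 278, 311 and 347 at 24 h, 299, 272 and 309 at 36 h and 234, 236 and 237 at 72 h. Controls held 54.0, 51.3 and 46.4 CPM at 12 h, 48.3, 53.7 and 53.3 at 36 h, and 51.0, 121 and 60.4 at 72 h. No control reached the lowest SE library. The log2FC was 2.12 (standard error 0.15), 2.50 (0.15) and 1.73 (0.15) at 12, 36 and 72 h, with adjusted p of 7.58e-09, 4.69e-10 and 4.85e-08 by edgeR's quasi-likelihood test. Against all controls it was 1.85 at 6 h and 2.44 at 24 h. Without Ctr 72 h replicate 2 the 72 h value was 2.10. SE 24 h and SE 36 h had the highest means, 312 (SD 34.4) and 293 (SD 19.02) CPM, and did not differ beyond their spread. Stat3 overlaps exons of Stat5a on the opposite strand and of a non-coding gene over 696 bases, and since the counting did not use strand, reads from the shared bases cannot be told apart. Il6st, Il6ra, Lifr and Socs3 likewise overlap exons of non-coding genes over 181, 458, 1530 and 421 bases.

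Socs3, the feedback inhibitor, had the largest log2FC of the genes at 6, 36 and 72 h, with Il6 set aside because its controls hold almost no reads. SE libraries held 45.3, 70.2 and 110 CPM at 6 h, 89.2, 67.1 and 127 at 12 h, 157, 96.8 and 176 at 24 h, 82.4, 80.0 and 56.3 at 36 h, and 42.7, 48.6 and 67.7 at 72 h. The 9 controls lay between 0.657 and 5.05 CPM, with a median of 1.08. No library of one arm entered the range of the other. The log2FC was 5.39 (standard error 0.50), 6.38 (0.56) and 4.68 (0.56) at 12, 36 and 72 h, with adjusted p of 1.96e-07, 5.30e-08 and 3.34e-06 by edgeR's quasi-likelihood test, and 5.57 and 6.49 against all controls at 6 and 24 h. With 1 library left out in turn the 12 h value ranged from 4.88 to 6.67. The Ctr 12 h libraries held 1.04, 5.05 and 0.889 CPM. All 5 SE groups overlapped with their neighbour in the order of mean levels, from 143 (SD 41.4) CPM at 24 h to 53.0 (SD 13.1) at 72 h.

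Of 8 other inhibitors of the pathway 4, 2 and 1 were called higher at 12, 36 and 72 h and none lower. Of all genes 13.9%, 12.7% and 15.2% were called higher at these times, and 11.4%, 8.91% and 4.21% lower. Socs1, a relative of Socs3, had log2FC of 1.93 (adjusted p = 0.0146) and 2.16 (adjusted p = 0.0109) at 12 and 36 h and 0.37 (adjusted p = 0.730) at 72 h by edgeR's quasi-likelihood test. Ptpn6, which encodes the tyrosine phosphatase SHP-1 of blood-derived cells and microglia, had log2FC of 0.97, 2.25 and 3.81. Its SE libraries held 3.68, 6.20 and 6.21 CPM at 12 h and 27.0, 30.4 and 39.6 CPM at 72 h. Ptpn2 and Ptpn1, phosphatases that act on JAK kinases, were called at 12 h (0.85 and 0.87), and Ptpn2 also at 6 h (0.87) and 24 h (0.91). Cish passed at 6 h alone (1.01, adjusted p = 0.0272), and not without the 6 libraries with ganglion markers (0.66, adjusted p = 0.239). Socs2 and Pias3 were not called at any of the 5 times, and Socs7 had -0.58 at 72 h (adjusted p = 0.000624), under the threshold on fold change.

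Of the kinases, STAT genes and adaptors, Jak2, a kinase bound to gp130, was called higher at all 5 times with log2FC of 0.94, 0.90 and 0.80 at 12, 36 and 72 h. The 72 h value was 0.55 without the 6 libraries with ganglion markers and 0.36 without Ctr 72 h replicate 2 alone, under the threshold on fold change. Stat5a was also called at all 5 times (1.96, 2.13 and 2.04), with the overlap with Stat3 noted above. The adaptor Gab2 was called at 12 h (0.90) and Gab1 at 72 h (0.91). Tyk2 was called lower at 6 h (-0.97, adjusted p = 7.42e-07). Jak1, the main kinase of gp130 signalling, was not called, with values from -0.03 to 0.31 over the 5 times.

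Of 17 genes that STAT3 is known to induce, 15, 14 and 13 were called higher at 12, 36 and 72 h, 15 and 16 at 6 and 24 h, and none lower. Of all genes 13.9%, 12.7% and 15.2% were called higher at 12, 36 and 72 h, and 15.8% and 14.9% at 6 and 24 h. The median log2FC of the 17 genes was 3.17, 2.92 and 2.69, and with Saa3 at the bound of its control counts 3.17, 2.43 and 2.69. Timp1, an inhibitor of metalloproteinases, held 164, 168 and 139 CPM in SE 36 h against 0.575, 0.157 and 0 CPM in Ctr 36 h, a log2FC of 9.30 (standard error 0.48). Lcn2, lipocalin 2, held 44.3, 38.2 and 80.3 CPM in SE 12 h against 0.379, 0.691 and 0.0773 CPM in controls, a log2FC of 7.32 (0.65). Its SE effect at 72 h, 3.49, was smaller by the interaction test (difference -3.83, adjusted p = 0.00351). The intermediate filament genes Gfap and Vim, which reactive astrocytes express, had a larger SE effect at 72 h than at 12 h by the interaction test (differences of 1.37, adjusted p = 0.00489, and 2.12, adjusted p = 0.000632). Gfap held 7078, 8779 and 8594 CPM in SE 72 h against 290, 256 and 217 CPM in controls, with log2FC of 3.63, 4.31 and 5.0 at 12, 36 and 72 h. Vim had 2.95, 5.02 and 5.07. Bcl3, a regulator of NF-kappaB, had 5.10, 5.80 and 3.94.

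Saa3, an acute-phase protein, had no reads in Ctr 12 h and Ctr 72 h and was at least 20.7-fold and 6.44-fold higher in SE at these times, relative to a mean floor of 3 counts per library. Serpina3n, Cebpd, Cebpb, Pim1, Myc, Icam1 and Il4ra were called at 12, 36 and 72 h. Junb was called at 12 h (1.95), and had 0.10 at 36 h and -0.45 at 72 h. Mcl1 was called at 12 and 36 h and had 0.61 at 72 h, under the threshold on fold change. Bcl2l1 and Hif1a were not called in the time-matched comparisons. The list is of textbook targets that other factors also regulate, so it is no measure of STAT3 activity. Without the 6 libraries with ganglion markers 15, 14 and 12 of the 17 were called higher. At 72 h Cebpb (0.32) and Icam1 (1.59, adjusted p = 0.0592) were then not called and Mcl1 (0.75) was. Cebpb was also not called at 72 h without Ctr 72 h replicate 2 alone (0.41).

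**Figure D4:**
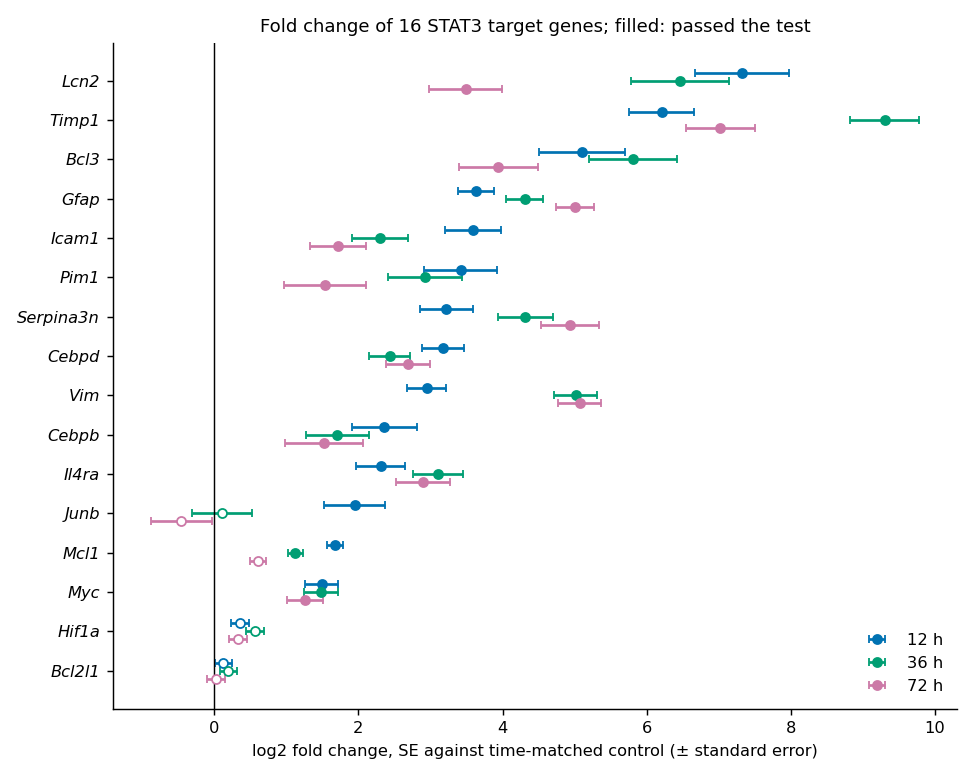
Log2FC at 3 times (12, 36 and 72 h) against time-matched controls for 16 genes that STAT3 is known to induce, with Saa3 left out because its controls hold almost no reads. Timp1 reaches 9.30 at 36 h, Gfap rises from 3.63 at 12 h to 5.0 at 72 h, Lcn2 falls from 7.32 to 3.49, and Bcl2l1 and Hif1a lie near 0.

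Between consecutive SE groups the call rule asked for an absolute log2FC of at least 1. Lif rose by 2.59 (standard error 0.39, adjusted p = 0.00222 by edgeR's quasi-likelihood test) from 6 to 12 h, the single call among the 10 genes at a step where 1.34% of all genes were called. Il11 rose by 2.73 (0.56, adjusted p = 0.00644) from 12 to 24 h, again as the single call among the 10 (3.18% of all genes). From 24 to 36 h Il11 fell by 3.04 (0.57, adjusted p = 0.0185) and Lif fell by 1.60 (0.37, adjusted p = 0.0448), at a step with 0.529% of all genes called. From 36 to 72 h Il11 fell by 2.89 (0.64, adjusted p = 0.00746) and Lif fell by 2.35 (0.39, adjusted p = 0.000771), with 4.13% of all genes called. No other member was called at these steps. Socs3 fell by 0.98 from 24 to 36 h without passing (adjusted p = 0.217). The Il11 and Lif calls from 24 to 36 h were lost in 6 and 8 of 21 alternatives, among them leaving out SE 24 h replicate 3, SE 36 h replicate 1 or SE 36 h replicate 3, and for Lif SE 24 h replicate 1. The Il11 call from 36 to 72 h was lost in 4 of 21 alternatives, which were limma-voom (adjusted p = 0.110), leaving out the 6 libraries with ganglion markers (0.0685), the compared groups only (0.0783) and leaving out SE 36 h replicate 2 (0.0893).

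The SE effect itself was compared between times by interaction terms, called on adjusted p alone. From 12 to 36 h no member was called by edgeR's quasi-likelihood test (3 had an unadjusted p under 0.05, DESeq2 called 1 and limma-voom 0), where 3.83% of all genes were called. Cntfr had a lower SE effect at 72 h than at 12 h (difference -1.03, standard error 0.32, adjusted p = 0.0251), with 22.2% of all genes called. That difference no longer passed without SE 12 h replicate 3, SE 72 h replicate 1, Ctr 12 h replicate 3 or Ctr 72 h replicate 3, nor without the 6 libraries with ganglion markers (-0.90, adjusted p = 0.0925). Stat3 had a lower SE effect at 72 h than at 36 h (-0.77, standard error 0.20, adjusted p = 0.0320), with 5.35% of all genes called. The Stat3 difference was -0.40 without Ctr 72 h replicate 2 and no longer passed, and it was lost in 14 of 26 alternatives, including leaving out any 1 Ctr 36 h library, SE 36 h replicates 1 or 3, or SE 72 h replicates 1 or 2. Other members that passed at some times and not at others, such as Il6ra, are not shown to differ between those times.

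Controls of different times gave the background. No member was called between Ctr 36 h and Ctr 12 h by edgeR's quasi-likelihood test (0% of all genes called, 1 member at an unadjusted p under 0.05, none by DESeq2 or limma-voom). None was called between Ctr 72 h and Ctr 36 h (1.97% of all genes, 3 members at an unadjusted p under 0.05, 1 by DESeq2, 0 by limma-voom). The same held between Ctr 72 h and Ctr 12 h (0.931% of all genes, 3 members unadjusted, 1 by DESeq2, 0 by limma-voom). Il6st had 0.43 between Ctr 72 h and Ctr 36 h (adjusted p = 0.0351), under the threshold on fold change.

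Ctr 72 h replicate 2 was the highest of the 9 controls for Il6st (179 CPM), Osmr (52.0), Lifr (162) and Stat3 (121). It also had the largest sum of ganglion markers and a total of 5793721 counts. Osmr was 4.66-fold higher in the mean of SE 72 h than in the mean of Ctr 72 h with this library and 16-fold higher without it. SE libraries with and without ganglion markers overlapped in Osmr and Stat3. In Lifr the SE libraries with these markers were higher than the others of their group at each of the 4 times that had them. They held 76.6 CPM against 68.2 and 73.1 at 6 h, 112 against 62.9 and 66.4 at 12 h, 159 against 101 and 95.1 at 36 h, and 140 and 101 against 86.0 at 72 h. In Il6st the same was seen at 12, 36 and 72 h, and at 6 h the library with markers (133 CPM) lay between the others. Whether RNA of ganglion cells sets the level of these genes in those libraries was not tested.

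**Figure D5:**
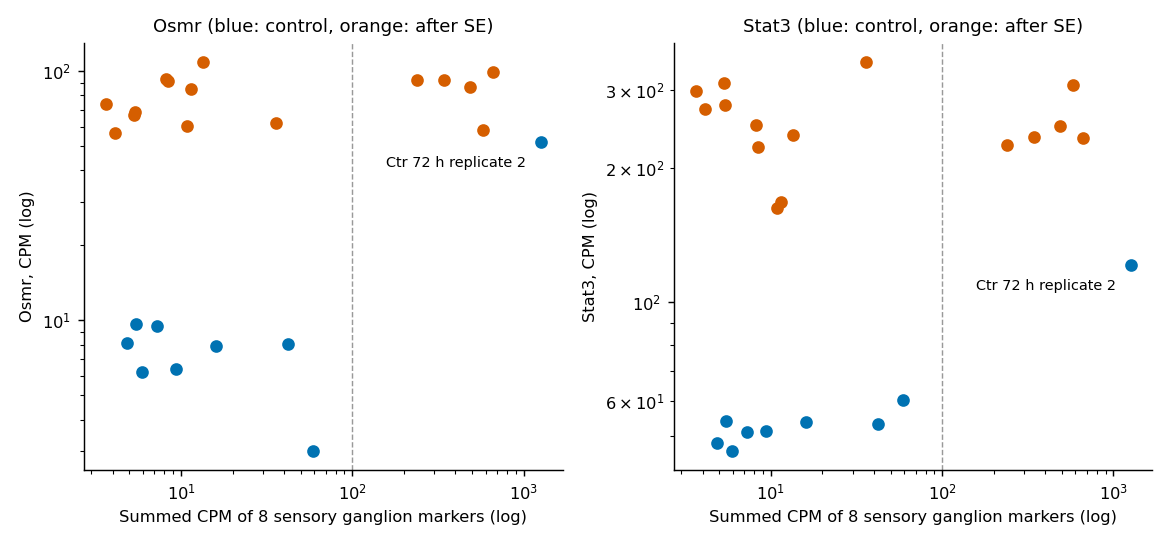
Level of Osmr and of Stat3 in CPM against the summed CPM of 8 sensory ganglion neuron markers in each of the 24 libraries, both axes logarithmic, with a dashed line at 100 CPM. Ctr 72 h replicate 2 lies above the other 8 controls in both genes and has the highest marker sum, and the SE libraries on either side of the line overlap.

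Across the 8 group means of log2 CPM the members followed different courses, given here as a description of 8 points that share libraries. Socs3 and Stat3 had a Pearson r of 0.98, Il6st and Osmr 0.97, and Il11 and Lif 0.95, while Lifr and Cntfr had -0.87. Among 13718 genes of mean log2 CPM 1 or more, the 3 genes most like Lif were Fgfr1 (0.995), Erp44 (0.993) and Col4a2 (0.992). Those most like Il11 were Azin1 (0.990), Riok3 and Mapk6, and those most like Il6 were Btg2 (0.990), Adam15 and Rilpl2. For the receptor chains they were Itgb1 (0.992), B4galt1 and Trim56 for Il6st, Ltbr (0.996), Rhbdf2 and Tnfrsf1a for Osmr, and Eef1d (0.968), Dolpp1 and Kcna5 for Il6ra. They were Timmdc1 (0.987), Smim30 and Atp6v1g1 for Lifr, and Il17d (0.974), Dedd2 and Gramd2a for Cntfr. Stat3 was most like Myd88 (0.996), Tpm4 and Plau, and Socs3 most like Lilrb4b (0.997), Ppp4r1 and Niban2. With Spearman's rho in place of Pearson's r most of these names were replaced by others.

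Markers of the cell types in CA1 also moved. Of all genes 13.9%, 12.7% and 15.2% were called higher at 12, 36 and 72 h, and 11.4%, 8.91% and 4.21% lower. At 6 and 24 h 15.8% and 14.9% of all genes were called higher, and 6.21% and 9.21% lower. The 8 microglial markers summed to 229, 276, 509, 654 and 1610 CPM from the earliest to the latest SE group against 344 to 379 CPM in controls, and 8 of 8 were called higher at 72 h. Without the 6 libraries with ganglion markers, which leaves 1 SE 72 h library, P2ry12 was not called (0.73, adjusted p = 0.0723, beside 0.69 with all libraries). At 6 h 5 of the 8 were called lower (Csf1r, Cx3cr1, P2ry12, Tmem119 and Aif1) and none higher, and at 12 h P2ry12 (-3.69) and Tmem119 (-1.90) were lower and none higher. At 24 and 36 h 3 and 5 were higher and P2ry12 alone was lower (-2.75 and -2.12). With the 6 libraries left out C1qa was called higher at 12 h (0.69, beside 0.53 with all libraries), and Aif1 was not called at 36 h (0.66, adjusted p = 0.1802, beside 0.93). Ptpn6 had its highest log2FC at 72 h, as the sum of these markers did. The 7 astrocytic markers summed to 2838 CPM at 24 h and 2858 at 36 h, when Stat3 had its highest means, and to 5699 CPM at 72 h, against 4940 to 5458 CPM in controls. Of these, 1 was called higher and 2 lower at 12 h, 2 and 4 at 36 h, and 3 and 0 at 72 h. Endothelial markers summed to 340, 333, 395, 325 and 271 CPM from 6 to 72 h against 178 to 199 CPM in controls, with 4 of 6 called higher at 12 h, 3 at 36 h and 2 at 72 h (0 without the 6 libraries), and Tek was called lower at 6 h. Infiltrating leukocyte markers had mean sums of 1.62 to 12.98 CPM in SE and 0.507 to 7.58 CPM in controls. Of the 4 tested, Ccr2 and Itgal were called higher at 6 h, S100a8 at 12 h and Ccr2 at 36 and 72 h, with none lower. Without the 6 libraries Itgal at 6 h (log2FC 1.396, adjusted p = 0.0884, beside 1.25 with all libraries) and Ccr2 at 72 h (2.02, adjusted p = 0.486, beside 3.44) were not called. Dentate granule markers had their highest mean sum at 72 h (92.0 CPM, with 234 CPM in replicate 1) and 3 of 4 were called higher there, against 0 without the 6 libraries or without Ctr 72 h replicate 2 alone. At 36 h 1 was called higher, and 4 without the 6 libraries, where Prox1 (2.07), Dsp (3.61) and C1ql2 (2.67) were added. Oligodendrocyte markers had mean sums of 2428 to 5310 CPM in SE and 3336 to 3461 CPM in controls, with 2 of 5 called higher at 6 and 24 h and 1 at 72 h (0 without Ctr 72 h replicate 2). Without the 6 libraries 2 were called lower at 12 h and 3 at 36 h, where none had been. Mog was then also called lower at 24 h (-0.92, beside -0.62 with all libraries), as it was without Ctr 72 h replicate 2 alone (-0.91). Mural and fibroblast markers had 267 to 367 CPM and 306 to 406 CPM, with 3 of 6 called higher at 36 h and Pdgfrb at 24 and 72 h. Rgs5 was called lower at 6 h (-0.66) and 12 h (-0.73), and Dcn at 24 h (-1.80). Choroid plexus markers stayed at 7.27 to 25.7 CPM, and 1 of the 2 tested was called lower at 12 h. CA1 pyramidal markers differed in both directions. At 36 h the SE and control means were 364 and 166 CPM for Wfs1 and 53.1 and 516 CPM for Fibcd1. They were 38.4 and 106 CPM for Pou3f1, and 271 and 589 CPM for Mpped1. Within Ctr 12 h Fibcd1 ran from 43.2 to 273 CPM. The part of these cell types in the levels of the 10 genes was not tested.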

How the data were processed

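Polyadenylated RNA of CA1 was sequenced as paired ends (TruSeq v2, HiSeq). The authors trimmed reads with Trim Galore 0.6.6, aligned them with STAR 2.7.8a to GRCm39, counted them per GENCODE gene with HTSeq 0.13.5 without regard to strand, and deposited whole-number counts per gene and library after a filter on low counts. Identifiers of 18552 of 18647 genes were matched to symbols.

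Counts were fitted with edgeR 4.0.16 (R 4.3.3; TMM scaling, filterByExpr, glmQLFit and glmQLFTest) on all 24 libraries in 8 groups, with group terms and 1 RUVr factor, the first axis of residual variation, on which Ctr 72 h replicate 2 had the largest weight (0.797). P-values were Benjamini-Hochberg adjusted over 18153 genes. SE and control groups, and controls of different times, were compared at a log2FC of 0.66, consecutive SE groups at 1, and SE effects on adjusted p alone. CPM use TMM-scaled library totals, and log2 CPM a prior count of 2. The floor was 3 counts. The fit was first run on simulated counts with changes of known size at 12 h. These were drawn gene by gene, without a shared factor or an outlying library. The simulation therefore cannot show how the fit behaves where 1 library has most weight on the RUVr factor. Depth sets the precision: 3 counts equal 0.0994 CPM in the largest library and 1.13 CPM in the smallest.

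The 10 genes and all gene lists (ligands, receptors, inhibitors, proteases, JAK, STAT and adaptors, STAT3 targets, cell type markers) were chosen with earlier results of these data known. Named were all 10 genes, every tested ligand, receptor, inhibitor and protease, the kinases and STAT3 targets called in a time-matched comparison (values for the 6 with the largest log2FC), and per member the 3 genes with the highest Pearson r of group means. Alternatives were no RUVr factor, DESeq2 1.42.0, limma-voom (limma 3.58.1), other scalings, filters and thresholds, fewer groups or libraries, thinning, a replicate block, and the ranges of the label numbers or a ganglion score as factors. Leaving out the 6 libraries with over 100 CPM of ganglion markers, and refitting the listed genes without them or without Ctr 72 h replicate 2, was chosen after seeing the data. Some genes of the lists, and counts over the lists that hold them, are not reported here.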

Additional observations from a re-analysis of the deposited data

Results flagged for a closer look

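Ctr 72 h replicate 2 was far from the other 8 controls in 4 of the 10 genes. It held 179.22 CPM of Il6st where the next control had 75.62, 52.01 CPM of Osmr where the next had 9.6536, 162.17 CPM of Lifr where the next had 85.861, and 121.41 CPM of Stat3 where the next had 60.365. Il11 stood at 1.1059 CPM in Ctr 12 h replicate 2, and the next control at 0.38664 CPM. In each case the gap to the nearest library, as a part of the range of the 9 controls, exceeded Dixon's critical value for 9 samples, which chance exceeds in about 1 of 20 groups. The controls are of 3 times, and the part of time in these gaps was not tested.

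The SE effect differed between times for 2 genes by edgeR's quasi-likelihood test of the interaction. For Cntfr the effect at 72 h minus that at 12 h was -1.0273 on the log2 scale (standard error 0.3153, adjusted p = 0.02507), where 22.2% of all genes were called, and the call was lost in 6 of 26 alternatives. For Stat3 the effect at 72 h minus that at 36 h was -0.77119 (standard error 0.2029, adjusted p = 0.03202), where 5.35% of all genes were called. That call was lost in 14 of 26 alternatives, and the difference was -0.40 without Ctr 72 h replicate 2.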

How the results depend on the processing

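No result changed direction after being called, and of the values of single members under the alternatives 1234 stayed on the same side of the threshold, 55 lost it, 9 gained it and 9 moved. At 12 h, 36 h, 6 h and 24 h against controls the number of members called stayed within 1.5 times its value (8, 7, 8 and 7). At 72 h it fell from 7 to 4 with the ranges of the label numbers as a factor, where Il6st, Il6ra and Osmr were lost (Osmr 2.10, adjusted p = 0.0620). No range holds SE and control libraries of 72 h, and the range of all SE 24 h libraries holds no control. Range and SE therefore cannot be told apart within either of these ranges alone. The fit with that factor takes the range terms from groups whose libraries span ranges, such as SE 6 h and Ctr 12 h. At 24 h Il6 was lost with the ranges as a factor (adjusted p = 0.0719). Within the range shared by 2 SE and 3 control libraries of 36 h, the log2 differences were 2.46 for Stat3, 6.38 for Socs3, 2.99 for Osmr and 5.12 for Lif, beside 2.50, 6.21, 2.94 and 5.29 over all libraries. For Il6ra and Lifr they were 0.517 and 0.350, beside 0.0610 and 0.583. Without a RUVr factor Il6st at 72 h was 0.65 (adjusted p = 0.0843). Il11 at 72 h passed with DESeq2 (adjusted p = 0.0281). Scaling by library size only moved the median of all genes to 0.127 at 36 h and 0.142 at 72 h, and Lifr at 36 h then passed at 0.73.

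From 12 to 24 h, 2 members in place of 1 were called with the threshold of 0.66, with limma-voom and without the 6 libraries with ganglion markers. From 24 to 36 h, 0 in place of 2 were called without the RUVr factor, with the ranges as a factor or with the compared groups only, and 1 with thinned counts. From 36 to 72 h, 1 in place of 2 was called without the 6 libraries or with the compared groups only. For the interaction of 36 and 12 h, 1 in place of 0 was called with DESeq2, the ranges as a factor, thinned counts or the compared groups only, and 2 without the 6 libraries. For that of 72 and 12 h, 2 in place of 1 were called with DESeq2, and 0 without the 6 libraries or with the compared groups only. For that of 72 and 36 h, 0 in place of 1 were called without the RUVr factor, with limma-voom, the ranges, the ganglion score, thinned counts or without the 6 libraries, and 2 with the compared groups only. Between controls, 1 in place of 0 was called for 72 against 36 h with DESeq2 or the compared groups only, and for 72 against 12 h with DESeq2. The cause was not tested. Leaving out the 6 libraries left 1 SE 72 h library, assumed to vary like the other groups.

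With 1 library left out in turn, there were 1 to 2 calls from 12 to 24 h (2 without SE 12 h replicate 1), 0 to 3 from 24 to 36 h (3 without Ctr 72 h replicate 2), 1 to 3 from 36 to 72 h, and 0 to 2 for each interaction and for Ctr 72 h against Ctr 36 h and Ctr 12 h (2 without Ctr 72 h replicate 1, 1 without replicate 3). With a replicate block the interaction of 36 and 12 h called 1 member in place of 0, and no other count changed. Libraries with the same number correlated at -0.201 to 0.181, so the numbers were not taken to pair the libraries.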
